A study of Mus musculus with 4 samples.

Results

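Immunoglobulin chains and genes of antibody secretion were followed through the bone of control and unloaded mice. The 8 genes were the heavy chain constant genes Ighm and Ighd, the kappa light chain constant gene Igkc, the lambda light chain constant genes Iglc1, Iglc2 and Iglc3, and Jchain and Mzb1. They are 8 of the 31053 genes in the count tables and were found by symbol. Their counts were read in the 32217 barcodes with 1000 to 40000 unique molecular identifiers (UMIs) and at most 10% mitochondrial UMIs. The Ctrl group comprised 2 wild-type C57BL/6J mice with no treatment, and the HLU (hindlimb unloading) group comprised 2 wild-type mice of the same strain after 28 days of tail suspension. One library was made from each mouse. Tibiae and femurs were flushed to remove the marrow and digested with enzymes, so the libraries hold bone tissue together with whatever marrow cells the flush left behind. The sources disagree on the age of the mice, so it is not given here. The libraries are called Ctrl 1, Ctrl 2, HLU 1 and HLU 2, and values listed for all 4 follow that order. Levels are given as CPM, the UMIs of a gene scaled to the same total in every sum.

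An antibody is built of paired heavy and light chains. A B cell first makes an Ighm heavy chain together with surrogate light chain proteins, then rearranges a kappa or a lambda light chain, and as a mature cell also makes Ighd from the same primary transcript by alternative splicing. Each B cell normally keeps only one light chain, and in the mouse most B cells use kappa. Plasma cells secrete the antibody in very large amounts, often after switching the heavy chain from Ighm to Ighg, Igha or Ighe. Jchain encodes the joining chain that links units of IgM and IgA, and Mzb1 encodes a chaperone of the endoplasmic reticulum that assists antibody assembly. Bone marrow is the site of B cell formation and a home of long-lived plasma cells.

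Ighm lies at chr12:113418558-113422730 and Ighd at chr12:113406604-113416324, both on the minus strand of mm10. Igkc is a single exon at chr6:70726435-70726966 on the plus strand. Iglc1 (chr16:19061618-19062071), Iglc3 (chr16:19065230-19065681) and Iglc2 (chr16:19198396-19200351) lie on the minus strand of chromosome 16, and Jchain on the minus strand at chr5:88519809-88527891. The coding parts of the lambda constant genes are shown because their likeness limits how well a read can be assigned to one of them. The first 300 coding bases of each are given, at chr16:19061772-19062071, chr16:19198554-19198853 and chr16:19065382-19065681. Capitals mark bases at which a gene differs from at least 1 of the other two.
Iglc1: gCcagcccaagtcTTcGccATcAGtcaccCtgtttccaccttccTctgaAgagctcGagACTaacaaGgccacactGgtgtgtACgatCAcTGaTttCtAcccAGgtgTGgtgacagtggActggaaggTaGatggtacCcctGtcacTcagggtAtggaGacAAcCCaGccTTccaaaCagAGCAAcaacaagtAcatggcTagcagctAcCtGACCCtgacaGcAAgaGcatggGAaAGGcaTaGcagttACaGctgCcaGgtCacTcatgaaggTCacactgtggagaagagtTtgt
Iglc2: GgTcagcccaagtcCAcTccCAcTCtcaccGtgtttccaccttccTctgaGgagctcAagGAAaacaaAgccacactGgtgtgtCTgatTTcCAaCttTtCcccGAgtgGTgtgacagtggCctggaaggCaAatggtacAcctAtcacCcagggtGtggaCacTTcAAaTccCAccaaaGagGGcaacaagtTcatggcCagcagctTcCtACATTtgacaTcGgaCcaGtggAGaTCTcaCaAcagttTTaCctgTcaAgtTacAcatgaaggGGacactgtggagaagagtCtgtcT
Iglc3: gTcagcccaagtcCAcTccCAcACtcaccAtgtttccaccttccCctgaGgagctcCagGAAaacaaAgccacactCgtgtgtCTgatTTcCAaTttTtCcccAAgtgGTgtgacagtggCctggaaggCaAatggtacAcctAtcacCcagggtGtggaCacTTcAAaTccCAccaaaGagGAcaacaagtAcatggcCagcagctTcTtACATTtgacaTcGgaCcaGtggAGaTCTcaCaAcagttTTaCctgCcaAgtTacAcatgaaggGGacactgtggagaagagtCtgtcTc

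Iglc2 and Iglc3 were identical at 303 of 315 aligned coding positions (96.2%) and at 128 of 143 positions after the stop codon (89.5%). Iglc1 matched Iglc2 at 73.4% and Iglc3 at 74.2% of coding positions, and Igkc matched the lambda genes at 51.8% to 53.9%. The division of UMIs between Iglc2 and Iglc3 is therefore uncertain. The kit counts 3′ ends, 1 UMI per molecule, so no value was divided by transcript length, and levels of different genes are not ranked against each other.

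The libraries held 7340 and 7635 kept barcodes in Ctrl and 7757 and 9485 in HLU, with 45347595 to 87604282 UMIs per library. Pairs of libraries shared 13 to 21 kept barcode sequences. After removal of scored doublets, 1562 barcodes carried B lineage markers (144 and 297 in Ctrl, 638 and 483 in HLU), and all 10 fixed B cell markers were detected in each library. The immunoglobulin genes and both secretion genes were left out of clustering. B lineage clusters were clustered again without integration, and several sub-clusters came mostly from 1 library. HLU 2 gave 272 of the 273 cells of one B cell sub-cluster and 186 of the 187 of another. HLU 1 gave 183 of 203 and 22 of 23 cells of further ones. HLU 2 stood apart in other counts: none of its 483 B lineage barcodes was precursor-like (a count of 0 allows up to 0.621%), and its B lineage sum held no UMI of Igll1 against 109, 238 and 570 in the other libraries. HLU 2 also had only 267 barcodes under 1000 UMIs against 2143 to 2585 in the others. Intervals on single libraries are exact (Clopper-Pearson, 95%) and cover counting error only.

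The members' UMIs sat in B lineage cells and in a handful of barcodes with very large antibody content. B lineage singlets held 82.4% of all Ighd UMIs, 81.1% of Iglc2 and 80.9% of Iglc3, but only 46.7% of Ighm, 30.2% of Igkc and 34.2% of Iglc1. Of Mzb1 they held 70.3% and of Jchain 0.16% (14 of 8635 UMIs). A set of 17 antibody-rich barcodes, described next, held 97.5% of Jchain, 63.01% of Igkc, 56.3% of Iglc1 and 36.6% of Ighm UMIs.

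Antibody-rich barcodes were defined as those with at least 10% of their UMIs from immunoglobulin constant genes, so their high content is a description and was not tested. The lowest inside the limit had 18.1% and the highest outside 8.81%, and inside the median was 44.8%. Their median depth was 20371 UMIs. They numbered 3 in Ctrl 1, 3 in Ctrl 2, 7 in HLU 1 and 4 in HLU 2. Per 10000 kept barcodes these were 4.09, 3.93, 9.02 and 4.22. Both HLU libraries lay above both Ctrl libraries, HLU 2 by a small margin, and the difference was not tested. Scored doublets were kept in this set, unlike in the B lineage counts. They made up all of the HLU 2 barcodes and most of those of HLU 1, but a minority in Ctrl 2 and none in Ctrl 1. Nearly every transcript of a given chain came from one gene. The leading heavy chain was Igha in 8, Ighm in 7, Ighg2b in 1 and Ighg2c in 1, and it made up at least 99.25% of the heavy chain UMIs in each. The leading light chain was Igkc in 16 and Iglc1 in 1, with a median share of 99.1% of light chain UMIs. In one Igha barcode of Ctrl 1, 17393 Igkc UMIs stood beside 14 of Iglc2, 21 of Iglc3 and none of Iglc1. The lowest light chain share was 82.3%, in an Igha barcode of HLU 1 with 5489 Igkc and 1156 Iglc1 UMIs.

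Jchain was found in 16 of the 17 barcodes, with a median of 204.7 and a highest value of 599.6 UMIs per 10000. The one without it, an Ighm and Igkc barcode of HLU 2, also lacked Mzb1. Mzb1 had a median of 13.3 and a highest value of 97.8 per 10000, the latter in the Ighg2b barcode. Ighd gave 18 UMIs in a single barcode and none in the other 16. Of the 10 plasma cell markers 4 to 10 were detected per barcode, with a median of 8. Xbp1, a transcription factor of secretory cells, was present in all 17, Slamf7 in 16, Txndc5 in 15 and Derl3 in 13, whereas Sdc1, the plasma cell surface marker, was present in 12 and Prdm1, the factor that drives plasma cell formation, in 10. Of these barcodes 10 were scored as doublets, and 15 fell in a cluster without a name whose leading genes were chaperones of the endoplasmic reticulum (Creld2, Hspa5, Pdia4). Xbp1 and Txndc5 were also common in the rest of that cluster (87.1% and 75.5% of barcodes).

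**Figure D1:**
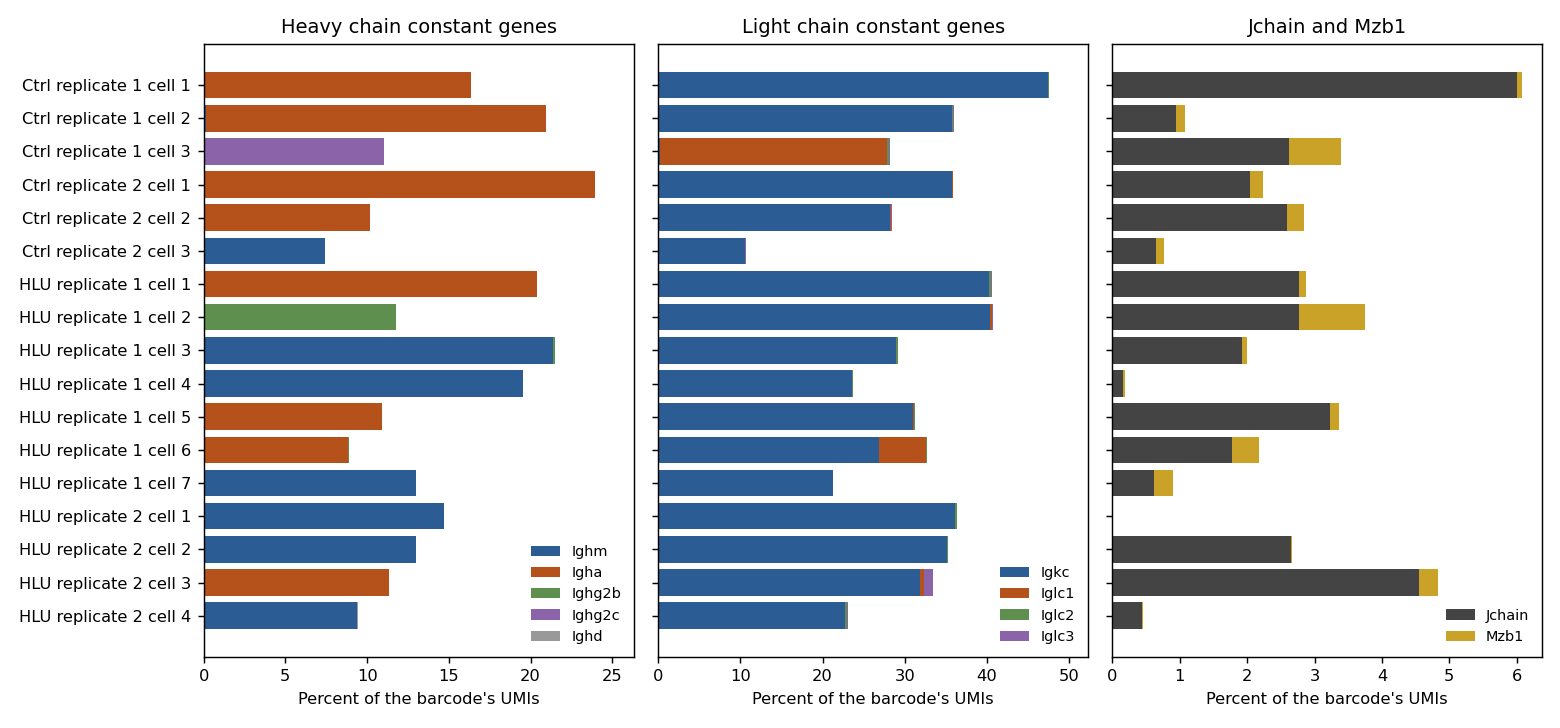
Makeup of the 17 antibody-rich barcodes, one row each. Horizontal axes give the percent of the barcode's UMIs from heavy chain constant genes (left), light chain constant genes (middle) and Jchain and Mzb1 (right). Each bar is almost one colour in the left and middle panels, with Igkc the light chain in 16 of 17.

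Heavy chains of B lineage cells were Ighm and Ighd almost alone. Ighm reached 4366 CPM in Ctrl 1, 3466 in Ctrl 2, 4885 in HLU 1 and 2574 in HLU 2. The HLU libraries were the highest and the lowest, so the groups overlapped, and the log2 difference of HLU minus Ctrl was -0.21 ± 0.28 (SE, edgeR quasi-likelihood, adjusted p = 0.946). Ighd, the mark of mature naive B cells, was 377 and 455 CPM in Ctrl and 565 and 872 in HLU. Both HLU libraries lay above both Ctrl libraries, but the log2 difference of 0.67 ± 0.31 did not pass the test (adjusted p = 0.934). Without HLU 1 it was 0.98 (adjusted p = 0.0102) and Ighm was -0.68 (adjusted p = 0.0217), a comparison that then rests on HLU 2 alone and in which 902 of 8934 genes passed (10.1%).

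Ighm was above 1000 CPM in each sub-group of the B lineage, whereas Ighd was low in precursors and highest in other B cells. B lineage cells were divided by the leading genes of their sub-clusters into 4 sub-groups: precursor B cell-like (6, 9, 24 and 0 cells), Rag1 or Vpreb3 led (40, 32, 124 and 8), Cd83 and Bcl2a1d led (29, 49, 139 and 201) and other B cell-like (69, 207, 351 and 274). Precursor cells had 1055 to 1253 CPM of Ighm in the 3 libraries that held them. Rag1 or Vpreb3 led cells, in which a gene of receptor rearrangement or of the surrogate light chain family stands out, had 2044 to 6465, other B cells 3856 to 6227, and Cd83 and Bcl2a1d led cells, which carry genes of activated B cells, 1559 to 2632. The ranges of other and Rag1 or Vpreb3 led cells overlapped, as did those of Rag1 or Vpreb3 led and Cd83 and Bcl2a1d led cells. The 8 Rag1 or Vpreb3 led cells of HLU 2 held no Rag1 UMI. In precursors Ighd was at 39.6 CPM in HLU 1 and at 0 in Ctrl 1 and Ctrl 2, where a 0 allows up to 93.1 and 48.6 CPM. Ighd was at 36.8 to 179 in Rag1 or Vpreb3 led cells, at 289 to 612 in Cd83 and Bcl2a1d led cells and at 666 to 1271 in other cells. The last 3 ranges did not overlap.

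To compare single cells at equal depth, each was thinned to 1000 UMIs, which left out none. Of Ighm positive B lineage cells, 30% carried an Ighd UMI in Ctrl 1 (39 of 130, interval 22.3% to 38.7%), 41.2% in Ctrl 2 (107 of 260, 35.1% to 47.4%), 39.6% in HLU 1 (233 of 589, 35.6% to 43.6%) and 61.4% in HLU 2 (250 of 407, 56.5% to 66.2%). HLU 1 lay within the Ctrl range and HLU 2 above all others. Ctrl averaged 35.6% ± 7.89 (SD, n = 2) and HLU 50.5% ± 15.5 (SD, n = 2), a difference of 14.9 percentage points (two-sided exact permutation test, p = 0.667; 2 libraries against 2 cannot go below 0.333). Without HLU 2 the difference was 3.98 points. Unthinned shares were 51.4%, 63.1%, 73.7% and 81.8%. At the same thinned depth, an Ighd UMI was found in 28.5% to 57.6% of all B lineage cells (median unthinned depth 2582 to 3562.5 UMIs) and in 0% to 0.236% of neutrophil-like cells (3145 to 5671.5 UMIs).

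Within sub-groups HLU 2 was again the highest library in the Cd83 and Bcl2a1d led and in the other B cells. The sub-groups do not match cells between libraries, however. Of the 274 other B cells of HLU 2, 272 lay in a sub-cluster with 0, 0 and 1 cells from Ctrl 1, Ctrl 2 and HLU 1. Of its 201 Cd83 and Bcl2a1d led cells, 186 lay in another with the same counts from those libraries. In other B cells the share was 45.2%, 49.7%, 51.3% and 68.7%, and in Cd83 and Bcl2a1d led cells 40.0%, 31.4%, 38.2% and 50.4%. In Rag1 or Vpreb3 led cells it was 2.56% to 12.4% in the 3 libraries with over 8 such cells, and 0 of 6 in HLU 2. Counted as molecules, B lineage cells held 8.6, 13.1, 11.6 and 33.9 Ighd UMIs per 100 of Ighm. HLU 2 was low in Ighm and high in Ighd at the same time.

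**Figure D2:**
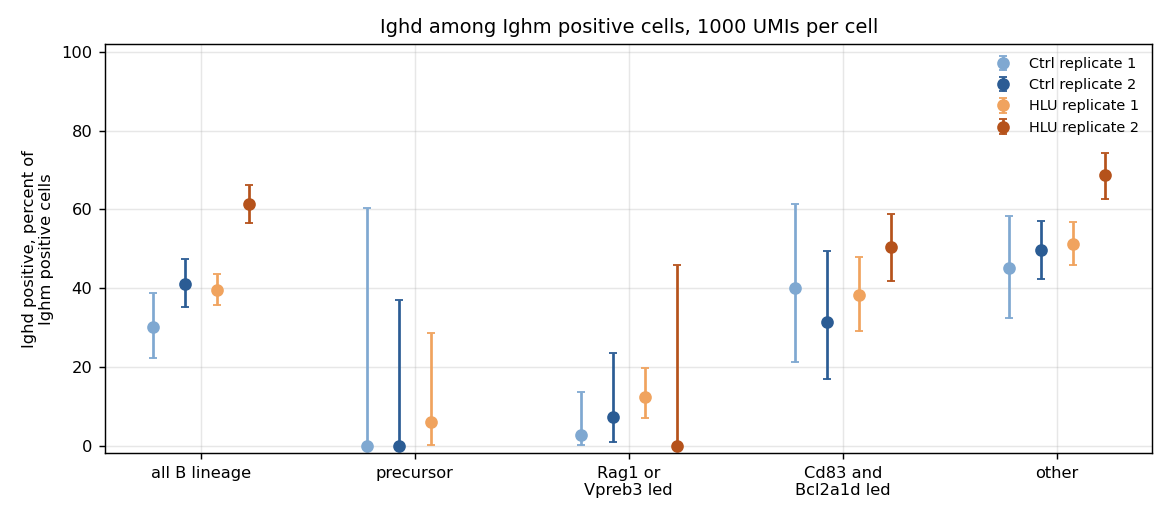
Percent of Ighm positive cells with an Ighd UMI (vertical axis), at 1000 UMIs per cell, in all B lineage cells and in each sub-group (horizontal axis), 1 point per library with its exact 95% interval. The share is low in precursor and in Rag1 or Vpreb3 led cells, and HLU 2 is the highest library in all B lineage cells (61.4%) and in other B cells (68.7%).

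Switched heavy chains were rare in B lineage cells, and UMIs of Igha, Ighg2b and Ighg2c lay mostly in the antibody-rich barcodes. Of the 6 switched genes Igha and Ighg2b reached the level for testing in B lineage sums, and neither passed (edgeR; 0 at an unadjusted p under 0.05, and 0 by DESeq2). Igha was 47.5, 10.2, 15.2 and 3.29 CPM, and Ighg2b was 1.76, 23.4, 11.7 and 0.66. Antibody-rich barcodes held 29222 of 30205 Igha UMIs (96.7%), 2419 of 2538 of Ighg2b (95.3%) and 2718 of 2842 of Ighg2c (95.6%), and Ighg1 was at 0 throughout. Ighg3 gave 16 UMIs, 13 of them in B lineage cells, and Ighe 6, with 0 in B lineage cells. Neither was found in an antibody-rich barcode. At 1000 UMIs per cell, 1.39%, 1.01%, 2.98% and 1.04% of B lineage cells carried a switched heavy chain UMI.

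Kappa outnumbered lambda among B cells in every library. Igkc stood at 9600 and 7898 CPM in B lineage cells in Ctrl and at 9522 and 6511 in HLU, overlapping ranges with a log2 difference of -0.26 ± 0.20 (edgeR, adjusted p = 0.934). Iglc1 was 1418 and 560 in Ctrl and 1070 and 282 in HLU, with a gap between replicates of each group wider than that between the groups (log2 difference -0.69 ± 0.60, adjusted p = 0.934). Without HLU 1, and so against HLU 2 alone, Igkc was -0.50 (adjusted p = 0.0368) and Iglc1 -1.86 (adjusted p = 0.0252). Iglc2 was 1462 and 1280 in Ctrl and 1771 and 1500 in HLU. Both HLU libraries were above both Ctrl libraries by a small margin, with a log2 difference of 0.12 ± 0.21 (adjusted p = 0.963). Iglc3 was 1668 and 1117 in Ctrl and 1426 and 903 in HLU, again overlapping (-0.39 ± 0.29, adjusted p = 0.934).

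Light chain choice was called in B lineage cells with at least 5 light chain UMIs, as kappa where Igkc made up at least 80% of them, as lambda at 20% or less and as mixed in between. Of 1562 cells 1461 could be called. There were 587 kappa and 82 lambda cells, and 792 were mixed (54.2%). Among kappa and lambda cells, kappa was 81.6% in Ctrl 1 (62 of 76, interval 71.0% to 89.6%), 90.9% in Ctrl 2 (120 of 132, 84.7% to 95.2%), 86.9% in HLU 1 (246 of 283, 82.4% to 90.6%) and 89.3% in HLU 2 (159 of 178, 83.8% to 93.5%). The HLU libraries lay between the Ctrl libraries. The difference was 1.88 percentage points (86.2% ± 6.60 and 88.1% ± 1.70, SD, n = 2 each; two-sided exact permutation test, p = 1.0), and it became -2.78 without Ctrl 1 and 0.68 without HLU 2.

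The mixed cells set B lineage cells apart from the antibody-rich barcodes, in which one light chain gene held a median of 99.1% of the light chain UMIs. The mixed share was 42.0%, 51.5%, 52.6% and 61.4%. Mixed cells drew 63.5% of their light chain UMIs from Igkc, 16.5% from Iglc2, 13.4% from Iglc3 and 6.64% from Iglc1. Even kappa cells drew 5.59% from Iglc2 and 5.36% from Iglc3 but 0.96% from Iglc1. After thinning, 75.0% of B lineage cells (1172 of 1562) held an Igkc UMI together with a lambda UMI. The level of Iglc2 in neutrophil-like cells was 0.03% to 0.29% of that in B lineage cells. The share of these UMIs that comes from free RNA or from reads assigned to the wrong gene was not tested.

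**Figure D3:**
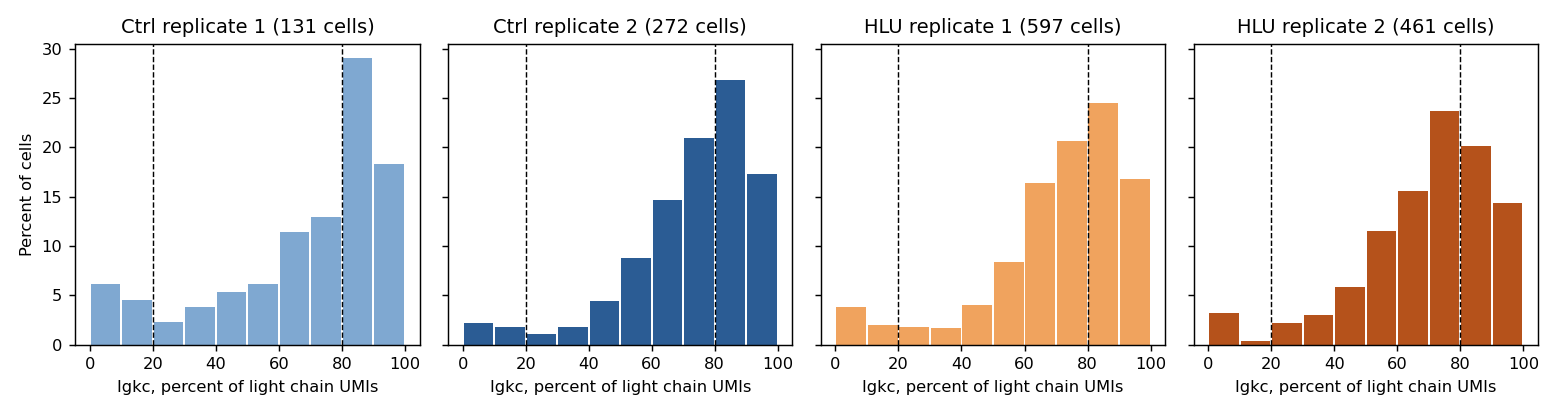
Igkc as a percent of light chain UMIs (horizontal axis, bins of 10) in B lineage cells with at least 5 light chain UMIs, as percent of cells (vertical axis), 1 panel per library. Dashed lines mark 20% and 80%. Most cells lie above 50%, with a small group under 20%, and many fall between the lines, 42.0% to 61.4% by library.

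By sub-group, light chain transcripts were scarce in precursors. Only 1 of 39 precursor cells had 5 light chain UMIs, and Igkc was 93.1, 0 and 106 CPM in Ctrl 1, Ctrl 2 and HLU 1. The order of the mixed share by sub-group differed between libraries. It was 38.2%, 23.8%, 40.0% and 85.7% in Rag1 or Vpreb3 led cells (the last from 6 of 7 cells called), 48.5%, 51.5%, 52.6% and 55.7% in other cells, and 31%, 64.4%, 63.9% and 69.1% in Cd83 and Bcl2a1d led cells. Rag1 or Vpreb3 led cells had the lowest share in Ctrl 2 and HLU 1, Cd83 and Bcl2a1d led cells in Ctrl 1 and other cells in HLU 2. In Rag1 or Vpreb3 led cells Igkc was 6774, 2613, 7207 and 4264 CPM and Iglc2 1112, 57.2, 1017 and 1304. In other B cells Igkc was 13360, 11481, 14337 and 9722, above every Rag1 or Vpreb3 led library. In Cd83 and Bcl2a1d led cells it was 8290, 4270, 5737 and 4060, a range that overlapped that of Rag1 or Vpreb3 led cells.

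The 82 lambda cells divided by their most abundant constant gene into 30 Iglc1, 38 Iglc2 and 14 Iglc3 cells. The leading gene held 77.8% of lambda UMIs in Iglc1 cells, 71.7% in Iglc2 cells and 67.7% in Iglc3 cells. The lambda variable gene Iglv1 was found in 7 of 30 Iglc1 cells (9 UMIs), 1 of 38 Iglc2 cells (1 UMI) and 4 of 14 Iglc3 cells (4 UMIs). Iglv3 was found in 2, 2 and 1 cells and Iglv2 in none. Iglc1 cells were 5 of 14 lambda cells in Ctrl 1, 6 of 12 in Ctrl 2, 15 of 37 in HLU 1 and 4 of 19 in HLU 2.

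Jchain was nearly absent from B lineage cells, with 2, 2, 8 and 2 UMIs, and it was too low to be tested there. Mzb1 was 750 and 594 CPM in Ctrl and 589 and 551 in HLU, both HLU libraries just below both Ctrl libraries (log2 difference -0.37 ± 0.25, edgeR, adjusted p = 0.934). Mzb1 was highest in precursors, in which Ighd was low. Precursors held 1676, 1279 and 1728 CPM in the 3 libraries with such cells, Rag1 or Vpreb3 led cells 653 to 1193, other B cells 597 to 773 and Cd83 and Bcl2a1d led cells 180 to 352. The ranges of Rag1 or Vpreb3 led and other cells overlapped, and the other neighbours did not.

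Across B lineage sums, 0 of the 7 members tested passed an adjusted p of 0.05 by edgeR. None had an unadjusted p under 0.05, and none passed by DESeq2. Of all 8555 genes tested 56 passed (0.655%), 2 of them higher (0.0234%) and 54 lower in HLU (0.631%). Libraries did not overlap for 3 of the 8 members, Ighd and Iglc2 above and Mzb1 below, against 38.3% of all tested genes in either direction (27.6% above and 10.7% below). The median log2 difference was -0.26 over the members tested and 0 over all genes. The named genes that rose were the haemoglobin genes Hba-a1 (8.8, 2.3, 151.6 and 903.9 CPM, adjusted p = 0.0448) and Hbb-bs (42.2, 16.4, 591.7 and 2499, adjusted p = 0.0291). Those that fell were Acan, a cartilage matrix gene (40.5, 41.4, 0 and 0, adjusted p = 0.00476), Prg4, the lubricin gene (411.8, 537.5, 0 and 3.3, adjusted p = 0.00533), Tnfrsf11b, 1500015O10Rik and P4ha2.

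Transcripts of other cell types differed between the B lineage sums. Summed chondrocyte markers (6 of 6 detected in Ctrl, 4 and 3 of 6 in HLU, with Acan and Matn3 at 0) were 387 and 351 CPM in Ctrl and 5.3 in both HLU libraries. Stromal markers were 889 and 716 against 4.2 and 6.6 (5 of 6 detected in Ctrl, 3 of 6 in HLU, with Lepr at 0 in all), erythroid markers 95 and 62.5 against 936 and 4845 (5 to 7 of 7 detected), and neutrophil markers 3119 and 4547 against 8705 and 10411 (8 or 9 of 9, with Ly6g at 0 in Ctrl). Their part in the members' values was not tested. Without the division of first-round clusters that set aside 309 stromal-like barcodes, all of them from Ctrl (B lineage then counted 272 and 478 in Ctrl), the members' log2 differences were 0.69 to 1.91 and 4 of 7 passed: Ighd 1.91 (adjusted p = 0.0144), Igkc 1.03 (0.0258), Iglc2 1.41 (0.00889) and Mzb1 0.94 (0.0452). In that fit 1704 of 10136 genes passed (16.8%), 3.04% of all genes higher in HLU.

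Related genes of the B lineage showed no called change either. All 7 surrogate light chain and recombination genes, which mark precursors, were tested and 0 passed by edgeR (0 at an unadjusted p under 0.05, 0 by DESeq2, median log2 difference -1.04). Vpreb3 was 795, 550, 832 and 81.0 CPM, Vpreb1 229, 295, 285 and 0.66, and Igll1 192, 186, 201 and 0. HLU 1 was level with Ctrl and HLU 2 far below. Of 10 B cell receptor genes, which encode the signalling partners of the antigen receptor, 0 passed by edgeR (0 unadjusted, 0 by DESeq2, median -0.16). Cd79a, a signalling subunit, was 2388, 1897, 2518 and 1256 CPM, and Cd79b, its partner, 1454, 1032, 1376 and 691. Of 18 secretion genes 15 were tested and 0 passed (0 unadjusted, 0 by DESeq2, median -0.10). Hspa5, the main chaperone of the endoplasmic reticulum, was 505, 434, 443 and 513, Hsp90b1 449, 381, 444 and 512, and Sec11c, a subunit of the signal peptidase, 275, 185, 314 and 198. Of the lambda variable genes Iglv1 and Iglv3 were tested and neither passed.

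The share of singlets of the B lineage was 2.08% (144 of 6909) and 4.14% (297 of 7169) in Ctrl and 8.77% (638 of 7276) and 5.51% (483 of 8765) in HLU. Both HLU libraries lay above both Ctrl libraries, with means of 3.11% ± 1.46 and 7.14% ± 2.30 (SD, n = 2 each). The difference of 4.03 percentage points reached the smallest p that 2 libraries against 2 allow (two-sided exact permutation test, p = 0.333), which is above 0.05. Chondrocyte-like singlets numbered 1813 and 1491 in Ctrl but 54 and 91 in HLU, and stromal-like singlets 1083 and 791 but 58 and 78. With both left out of the denominator the shares were 3.59%, 6.08%, 8.91% and 5.62%, and the groups overlapped (p = 0.667, exact). As a share of B lineage and neutrophil-like cells they were 10.03%, 14.9%, 16.9% and 14.2%, again overlapping (p = 0.667, exact).

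Summed over all kept barcodes, the members mostly followed HLU 1. In such sums more B cells and more RNA per B cell cannot be told apart. The sums also include the 17 antibody-rich barcodes, which lie outside the B lineage class. Those barcodes held most of the Igkc UMIs, a large part of the Ighm UMIs and 97.5% of the Jchain UMIs. Ighm was 61.6 and 138 CPM in Ctrl and 668 and 125 in HLU (log2 difference 2.02 ± 0.82, edgeR, adjusted p = 0.14). Igkc was 556 and 462 in Ctrl and 1860 and 348 in HLU (1.14 ± 0.73, adjusted p = 0.311). HLU 1 was the highest library for both genes and HLU 2 lay below at least 1 Ctrl library. Ighd was 4.48 and 13.7 in Ctrl and 42.7 and 17.4 in HLU (1.77 ± 0.65, adjusted p = 0.112), and it alone of the members had groups that did not overlap.

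The other light chains and the secretion genes were divided in the same way. Iglc2 was 20.1, 36.2, 135 and 30.3 CPM (log2 difference 1.58, adjusted p = 0.167) and Iglc3 21.4, 31.2, 109 and 19.1 (1.30, adjusted p = 0.269). Iglc1 was 146, 15.3, 106 and 6.89 (-0.51, adjusted p = 0.821). Its Ctrl 1 value included 6789 UMIs of a single antibody-rich barcode, and without the antibody-rich barcodes the Iglc1 difference was 1.09. Jchain was 55.1, 17.7, 75.7 and 12.1 (0.29, adjusted p = 0.845) and Mzb1 13.6, 17.9, 54.7 and 10.8 (1.08, adjusted p = 0.317).

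By edgeR 0 of the 8 members passed in whole-library sums, 1 (Ighd) had an unadjusted p under 0.05, and 3 passed by DESeq2 (Ighm, adjusted p = 0.0169; Ighd, 0.0173; Iglc2, 0.0462). Of all 15385 genes tested 4674 passed by DESeq2 (30.4%, either direction), and the 3 of 8 members were not tested against that share. By edgeR 3568 genes passed (23.2%). Groups did not overlap for 65.7% of genes in either direction and above Ctrl for 28.6%, against 1 of 8 members. Without HLU 2, which leaves HLU 1 alone, 6 members passed: Ighm (2.74, adjusted p = 0.00296), Ighd (2.23, 0.0154), Igkc (1.87, 0.00152), Iglc2 (2.26, 0.00239), Iglc3 (2.05, 0.00129) and Mzb1 (1.79, 0.00132). In that fit 6043 of 15996 genes passed (37.8%), 15.1% of all genes higher. Without HLU 1 the differences of Igkc, Iglc3, Jchain and Mzb1 turned negative, from -0.24 to -1.37.

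**Figure D4:**
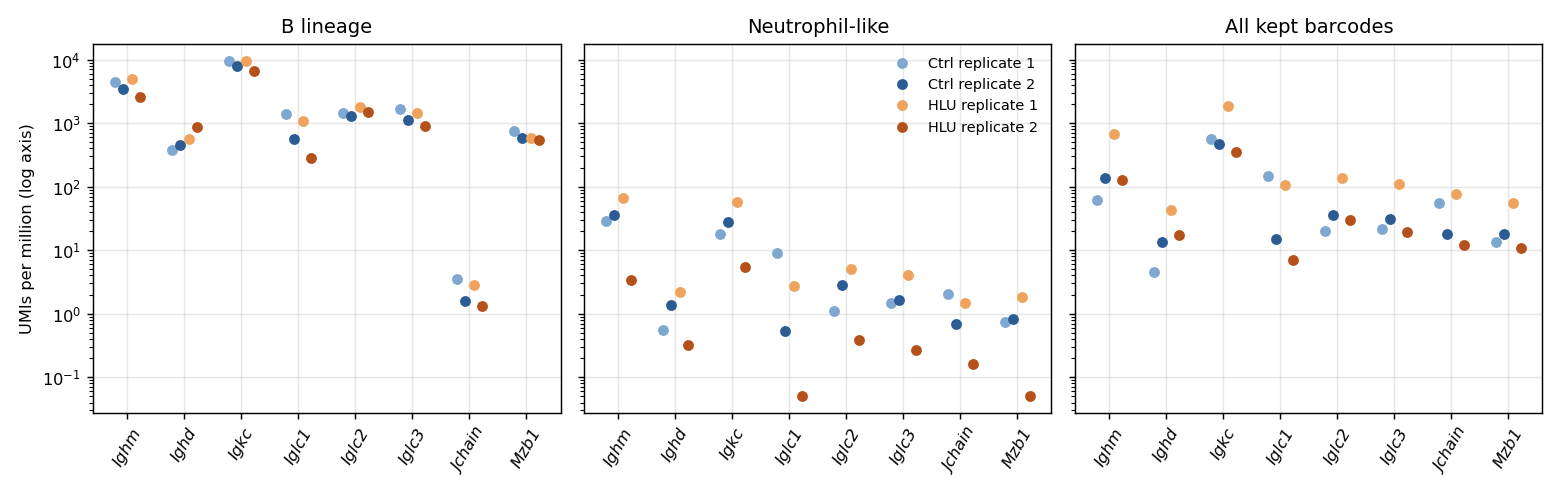
CPM (log axis) of the 8 members (horizontal axis) in sums over B lineage cells, neutrophil-like cells and all kept barcodes, 1 point per library. In B lineage cells the 4 libraries lie close together for most members, and over all kept barcodes HLU 1 is the highest library for 7 of 8 members.

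Over all barcodes 4 of 10 B cell receptor genes passed by DESeq2, against 30.4% of all genes in either direction. By edgeR 3 of the 10 were higher in HLU and 0 lower (3 at an unadjusted p under 0.05), against 6.06% of all genes higher. They were the kinase genes Btk (9.47, 10.9, 32.4 and 39.7 CPM, log2 difference 1.91, adjusted p = 0.0112), Syk (51.7, 73.9, 200 and 190, 1.71, adjusted p = 0.0181) and Lyn (56.4, 67.5, 181 and 231, 1.82, adjusted p = 0.0168), which myeloid cells also use. Of 17 secretion genes tested 7 passed by DESeq2, against the same 30.4% of all genes. By edgeR 4 were lower and 0 higher (10 at an unadjusted p under 0.05), against 17.1% of all genes lower: Hspa5 (1793, 1525, 333 and 501, -1.90, adjusted p = 0.0236), Creld2 (114, 109, 30.5 and 35.7, -1.67, adjusted p = 0.015), Txndc5 (55.0, 46.0, 15.3 and 17.7, -1.53, adjusted p = 0.0187) and Fkbp11 (38.65, 39.7, 4.70 and 10.4, -2.27, adjusted p = 0.027). These are folding enzymes that many secretory cells use. The share of all genes at an unadjusted p under 0.05 is not given here, so the counts of 3 and 10 cannot be read as an excess. The unnamed cluster led by Creld2 and Hspa5 had 214 and 109 singlets in Ctrl and 3 and 0 in HLU, antibody-rich ones included. Its nearest type was plasma cell, with 4 of 10 markers raised but 0 among its 10 leading genes. Of its barcodes other than the antibody-rich ones, 87.1% carried Xbp1, 75.5% Txndc5, 40.8% Fkbp11 and 18.8% Derl3. Sdc1 was found in 9.7%, Irf4 in 2.2%, Eaf2 in 0.9%, Slamf7 in 0.3%, and Tnfrsf17 and Prdm1 in 0%. The part of that cluster in the 4 falls was not tested. The surrogate light chain list had 0 of 7 called (0 unadjusted, 0 by DESeq2), the switched list 0 of 2 and the lambda variable list 0 of 2.

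Outside the B lineage the members were low and varied by library. Neutrophil-like cells, 1292, 1698, 3132 and 2914 singlets, held 29.2, 35.6, 66.3 and 3.39 CPM of Ighm and 17.8, 27.4, 57.1 and 5.38 of Igkc. HLU 1 was the highest and HLU 2 the lowest library for both. In relation to B lineage cells these levels were 0.13% to 1.36% for Ighm and 0.08% to 0.60% for Igkc. Jchain in neutrophil-like cells was 12.2% to 58.1% of its level in B lineage cells, both being near 0. At 1000 UMIs per cell, 2.09% (27 of 1292), 2.94% (50 of 1698), 5.94% (186 of 3132) and 0.75% (22 of 2914) of neutrophil-like cells carried an Igkc UMI, against 87.5% to 90.7% of B lineage cells. The difference between groups was 0.83 percentage points (2.52% ± 0.60 and 3.35% ± 3.67, SD, n = 2 each, two-sided exact permutation test, p = 1.0) and became -1.76 without HLU 1 and 3.42 without HLU 2. Unthinned shares were 7.20%, 10.8%, 18.4% and 3.40%.

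In neutrophil-like sums 0 of 7 members tested passed by edgeR (0 unadjusted, 0 by DESeq2), and Mzb1 was too low to be tested. Of 9897 genes 214 passed (2.16%), all of them lower in HLU. The groups overlapped for all 8 members, whereas they did not for 37.6% of genes tested. The Ighm difference was 0.07 ± 0.97 (adjusted p = 0.984) with all libraries, -2.80 (adjusted p = 6.63e-07) without HLU 1 and 0.92 (adjusted p = 0.0241) without HLU 2. Igkc went in the same manner from 0.45 to -1.63 (adjusted p = 0.000464) and 1.21 (adjusted p = 0.00388). Iglc1 passed too without HLU 1 (adjusted p = 0.00277). Each of these calls rests on a single HLU library, and 35.7% of all genes passed without HLU 1 and 5.27% without HLU 2. No B cell receptor, secretion or switched gene passed in these sums, though 3 of 12 secretion genes had an unadjusted p under 0.05 by edgeR. The share of all genes at that unadjusted level is not given here, so the 3 cannot be read as an excess.

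**Figure D5:**
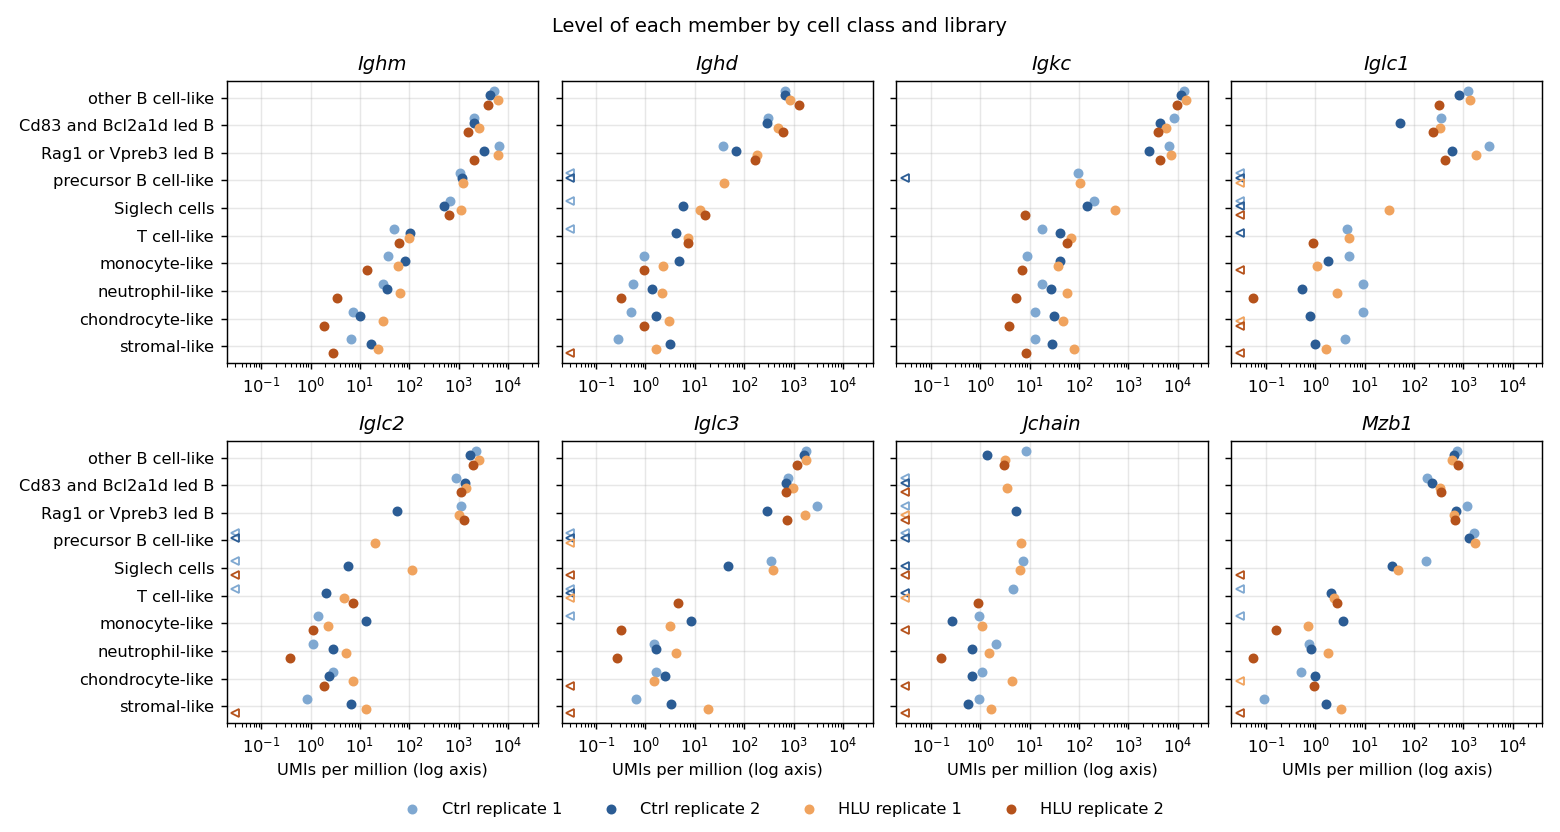
CPM (horizontal log axis) of each member in 10 classes of cells (vertical axis), 1 point per library; open triangles at the left mark a library with 0 UMIs. Levels of Ighm fall from 3856 to 6227 in other B cell-like cells to 3.39 to 66.3 in neutrophil-like cells, and Ighd rises and Mzb1 falls from precursor to other B cell-like cells.

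Ranked by level, Ighm after the B lineage was next highest in 79 cells with a UMI of Siglech, a receptor gene of plasmacytoid dendritic cells. They belonged to a cluster named plasmacytoid dendritic cell-like from the fixed markers, of which 7 of 8 were raised. Its 10 leading genes began with Ccl22 and Apol7c and included Ccr9 and Siglech. The Siglech cells held 668, 515, 1108 and 625 CPM, a range that overlapped that of precursor B cells. The cells of that cluster without Siglech held 92.9, 205, 155 and 134, below every one of these. Ighd in the Siglech cells was 0, 5.85, 12.5 and 15.8, and Igkc 196, 146, 535 and 7.92. T cell-like cells followed with 49.3 to 104 of Ighm, then monocyte-like (13.8 to 80.8) and neutrophil-like cells (3.39 to 66.3), then neutrophil progenitor-like (4.46 to 48.4), chondrocyte-like (1.88 to 29.5) and stromal-like cells (2.86 to 23.2). Each of these ranges overlapped the next. Erythroid-like (0 to 46.0) and basophil or mast cell-like cells (0 to 14.8) were as low. Macrophage-like cells spanned 0 to 123, with 6 to 17 such cells in 3 of the libraries. For Igkc the classes from T cell-like to stromal-like spanned 3.76 to 79.5 CPM, and all their ranges overlapped. A cluster of 933 barcodes with a median of 1295 to 1910 UMIs per library, left unnamed, reached 282 of Ighm and 385 of Igkc in HLU 1 but 5.86 to 62.6 and 23.4 to 107 in the other libraries.

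The makeup of this low signal differed by class. Igkc as a share of Igkc and Ighm UMIs was 66.1% to 71.7% in B lineage cells, 66.3% to 74.7% in barcodes under 1000 UMIs and 61.5% to 75.4% in chondrocyte-like cells. It was lower in neutrophil-like cells (37.9%, 43.5%, 46.3% and 61.4%), T cell-like cells (26.7%, 28.2%, 40.6% and 48.1%) and monocyte-like cells (18.6%, 33.5%, 39.1% and 33.9%). Neutrophil progenitor-like cells lay between, at 59.1% to 66.1%. Some of these shares rest on few UMIs, such as 4 of 6 in chondrocyte-like cells of HLU 2 and 4 of 15 in T cell-like cells of Ctrl 1. Among cells with at most 2 member UMIs the share was 41.05%, 45.7%, 44.4% and 61.4% in neutrophil-like cells, 33.3%, 37.9%, 54.4% and 46.8% in monocyte-like cells and 25.5% to 38.6% in T cell-like cells. In such neutrophil progenitor-like cells it was 72.2%, 52.8%, 46.5% and 53.7%, a range that overlapped that of neutrophil-like cells. The share of Iglc1 among light chain UMIs followed the library. In Ctrl 1 it was 30.8% in neutrophil-like cells (49 of 159), 34.6% in chondrocyte-like cells (176 of 509), 21.7% in stromal-like cells and 32.3% in monocyte-like cells. In neutrophil-like cells of Ctrl 2, HLU 1 and HLU 2 it was 1.67%, 3.91% and 0.88%. Ctrl 1 is the library with the antibody-rich barcode of Iglc1 and Ighg2c, whose part in this was not tested.

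The genes whose levels followed the members most closely over 82 sums of class by library (26 classes; Pearson r of log2 of CPM plus 10, as a description, since sums of one library share its depth) were computed for Ighm, Ighd, Igkc, Iglc2, Jchain and Mzb1. For Ighm they were Ly6d (r = 0.942), Cd79b (0.936) and Cd79a (0.930), and for Ighd Ms4a1 (0.972), Bank1 (0.958) and Fcmr (0.951). For Igkc they were Cd79a (0.862), Fcmr (0.849) and Tnfrsf13c (0.841), and for Iglc2 Fcmr (0.958), Tnfrsf13c (0.950) and Ms4a1 (0.944). Mzb1 went with Cd79a (0.967), Pou2af1 (0.953) and Pax5 (0.945), whereas Jchain went with 4930528H21Rik (0.952), Igha (0.943) and Gm5861 (0.927). As 97.5% of Jchain UMIs lay in the 17 antibody-rich barcodes, its r values rest on few cells.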

How the data were processed

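Single-cell RNA libraries of bone from 2 Ctrl and 2 HLU mice (10x Genomics 3′ kit) were compared. Per the labels and the submitters' processing notes, Cell Ranger 6.0.0 and the mm10 genome were used by the authors to count UMIs, with Seurat 4.1.0 for later steps. The deposited values are raw counts per gene and barcode, with no normalization; 0 columns belonged to other samples. Gene positions and coding sequences were read from GENCODE annotation and transcripts on mm10.

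Here, barcodes with 1000 to 40000 UMIs and at most 10% mitochondrial UMIs were kept, doublets were scored with Scrublet in scanpy 1.11.5 (expected rate 0.8% per 1000 barcodes) and libraries were integrated and clustered with Seurat 5.3.0 (R 4.3.3) without 107 immunoglobulin, Jchain and Mzb1 rows. Clusters were named from fixed markers. B lineage clusters were clustered again without integration, a step chosen after seeing the data. Counts summed per library were tested with edgeR 4.0.16 (TMM, filterByExpr, quasi-likelihood test, Benjamini-Hochberg over all genes tested), and shares with two-sided exact permutation tests. The alternatives were DESeq2 1.42.0, no filter, the replicate number as a block, each library left out, doublets kept, a marker gate, other light chain limits, no thinning and a haemoglobin limit of 0.2%. Tests were tried on simulated data. A log2 change of 1 was called for 3.12% of changed genes in B lineage sums, 2.86% in neutrophil-like sums and 1.14% in whole-library sums. For a change of 2 the percentages were 77.2%, 50.6% and 42.9%. A gene that did not pass is therefore not shown to be unchanged. With 2 libraries per group, p-values measure only the spread between these libraries. The members and lists were chosen with earlier results of these data known. The text names all members, list genes that passed or else the 3 of highest level, and in B lineage sums the 5 largest rises and falls among non-overlapping called genes. The values of 1 list gene that this rule names are not reported here. The sets called antibody-rich, the Siglech cells and the sub-groups were defined after seeing the data.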

Additional observations from a re-analysis of the deposited data

Results flagged for a closer look

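Barcodes under 1000 UMIs entered no comparison, and in them 6 members were higher in both HLU libraries than in either Ctrl library, as were 26.5% of the 11045 genes with at least 10 UMIs in these barcodes. Ighm was 518.3 and 184.1 CPM in HLU 1 and HLU 2, against 119 and 161 in Ctrl. Igkc was 1020 and 542.1 against 352 and 360, and Ighd 33.9 and 86.9 against 15.7 and 23.9. Iglc2 was 83.0 and 112.5 against 23.5 and 40.1, Iglc3 51.3 and 66.5 against 33.9 and 31.6, and Mzb1 31.04 and 35.8 against 16.5 and 13.9. The HLU 2 values rest on 267 barcodes and 195532 UMIs. The difference was not tested.

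Above the UMI limit, 1 antibody-rich barcode of HLU 2 was left out by the rule. It had 52721 UMIs, of which 8862 were Igkc, 1166 Ighm and 119 Jchain (19.1% from immunoglobulin constant genes). None was left out in this way in the other 3 libraries. Under 1000 UMIs, 1 barcode of Ctrl 1 also reached the antibody-rich limit and was left out.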

How the results depend on the processing

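Of 69 alternative values for the comparisons 49 stayed on the same side and in the same range as the value reported, 18 moved and 2 reversed. Of 235 for single members 182 stayed, 21 newly passed without a change of sign and 32 reversed, some of which also passed. Genes called in B lineage sums (56) became 219 with no filter on low counts, 107 with the replicate block, 575 with the marker gate, 1704 with the first-round clusters not split and 4 to 902 with 1 library left out. In neutrophil-like sums (214) they became 331 by DESeq2, 960 with no filter and 99 to 3504 with 1 library left out, and in whole-library sums (3568) 848 to 7726. The cause was not tested.

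Log2 differences that reversed in B lineage sums were, with the marker gate, Ighm 0.33 and Iglc3 0.09, and with the clusters not split Ighm 1.09, Igkc 1.03, Iglc1 0.69, Iglc3 0.93 and Mzb1 0.94. With 1 library left out, Ighm ranged from -0.68 to 0.18 and Iglc1 from -1.86 to 0.10. In neutrophil-like sums the ranges were -2.80 to 0.92 (Ighm), -1.16 to 1.18 (Ighd), -1.63 to 1.21 (Igkc), -5.69 to 1.23 (Iglc1), -1.97 to 1.27 (Iglc2), -2.05 to 1.28 (Iglc3) and -2.47 to 0.23 (Jchain). In whole-library sums they were -0.33 to 1.87 (Igkc), -3.33 to 1.89 (Iglc1), -0.24 to 2.05 (Iglc3), -1.37 to 1.33 (Jchain) and -0.32 to 1.79 (Mzb1), and Iglc1 was 1.09 without the antibody-rich barcodes. The kappa share difference ranged from -2.78 to 6.55 and the Igkc background difference from -1.76 to 3.42 percentage points.

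Replicate numbers were not taken to pair the mice: the replicate differences of the groups correlated at 0.027 (B lineage), 0.001 (neutrophil-like) and -0.129 (whole library). With the replicate block no member passed, and in neutrophil-like sums Ighm was -0.86, Igkc -0.13, Iglc2 -0.11 and Iglc3 -0.13. Over all alternatives together, 8 of 84 member values passed in B lineage sums, 6 of 63 in neutrophil-like sums and 11 of 88 in whole-library sums. Not all of these are listed singly here. The member counts also pool fits with 1 library left out, so no single share of all genes stands beside them. In fits on all 4 libraries the share of all genes called was 0.643% to 16.8% in B lineage sums. It was 1.53% to 5.75% in neutrophil-like sums and 17.5% to 30.4% in whole-library sums. With the numbers crossed, chosen after seeing the data, 3665 genes passed in whole-library sums against 3428 with the block. The settings on unsplit clusters, precursors, antibody-rich barcodes and other denominators were also added after seeing the data. With 2 libraries per group, a share cannot pass, and a sum with 1 library left out assumes that the lone library varies like the others. Depth limits Jchain in B lineage cells (14 UMIs) and precursors in HLU 2.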

Other observations

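Switched heavy chain UMIs outside the B lineage and the antibody-rich barcodes followed the library. Ighg2c was found in Ctrl 1 in neutrophil-like cells (7 UMIs), chondrocyte-like cells (34) and stromal-like cells (20), and at 0 to 4 UMIs in the same classes of the other libraries. The chondrocyte-like and stromal-like sums held 603910 to 1062776 UMIs in HLU against 9082223 to 19209104 in Ctrl, so a 0 in HLU says little there. Ighg2b was found in HLU 1 in neutrophil-like cells (11 UMIs) and at 0 in those of the other libraries. Each is the library whose antibody-rich barcodes include one of that class. Igha, which led antibody-rich barcodes in every library, gave 42, 50, 104 and 13 UMIs in neutrophil-like cells of Ctrl 1, Ctrl 2, HLU 1 and HLU 2. These are raw counts from sums of 5379724, 7361193, 14069781 and 18576652 UMIs, so they do not compare levels between libraries.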
